A study of Mus musculus with 24 samples.

Results

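The 12 DMH samples, pieces of diencephalon, midbrain and hindbrain dissected from mouse embryos at E14.5, were split here by how much caudal hindbrain RNA they held. The split used the summed CPM (a gene's fragments as a share of all fragments on genes, scaled to 1 M) of *Hoxa5*, *Hoxb5*, *Hoxb8* and *Hoxc4*, with 10 CPM as the limit, so the members were chosen from the same libraries that are described. Over the limit were 8 pieces, 5 from Tfap2b+/+ and 3 from Tfap2b-/- embryos, and at or under it were 4, 1 from a Tfap2b+/+ embryo (female control 1) and 3 from Tfap2b-/- embryos (female mutants 1 and 2, male mutant 2). The 12 embryos comprised 3 of each sex and genotype, and each also gave a library of the secondary prosencephalon (SP), so the series holds 24 libraries. The Tfap2b-/- embryos are homozygous for a loss-of-function allele of *Tfap2b* in all cells, and the Tfap2b+/+ embryos are their wild-type littermates. Each library comes from 1 embryo. Fragments on genes ranged from 27.4 to 66.8 M in the 8 pieces and from 24.7 to 32.5 M in the 4, and a floor of 3 counts corresponds to 0.0449 to 0.121 CPM, which covers counting error only. *Tfap2b*, whose loss defines the mutants, was at 384 CPM in female control 1 against 281 to 435 in the 5 controls with caudal *Hox*, and at 50.4 to 56.6 in all 6 mutants. With genotype in the fit it gave −0.04 between the split groups on the log2 scale (SE 0.11, edgeR adjusted p = 0.815). Female control 2 held Y-linked transcripts and was kept as labelled. In bulk tissue, fewer cells of a type and less RNA per cell cannot be told apart.

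*Hox* genes encode homeodomain transcription factors that give the hindbrain and spinal cord their positional identity, and a gene's place in its cluster follows the position at which its expression begins along the neural tube. Genes of the low-numbered paralogous groups start within the hindbrain, those of the middle groups near the junction of hindbrain and spinal cord, and those of the higher groups in the cord. The midbrain, diencephalon and secondary prosencephalon express none of them. The caudal hindbrain holds glycinergic and GABAergic interneurons, cranial motor neurons, noradrenergic neurons and caudal serotonergic neurons.

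The 4-gene *Hox* sum was 0 CPM in female mutant 1, 0.0342 in female mutant 2, 0.0369 in female control 1 and 0.0923 in male mutant 2, which stood nearest to the limit from below. In the 8 other pieces it ran from 175 CPM in female control 2, nearest to the limit from above, to 333 in male control 1, and no SP library exceeded 0.0344. No library lay near 10 CPM. These values chose the groups and carry no test. The remaining *Hox* genes were read in the same way, as a description of how far each piece reached. Of 35 listed, 18 passed the filter on low counts. *Hoxb3* was at 58.2 to 72.3 CPM in the 8 pieces, and in the 4 it was 7.11 in male mutant 2, 0.205 in female mutant 1 and 0 in the remaining pair. *Hoxa2*, the *Hox* gene with the most rostral limit, was at 9.02 to 12.0 CPM in the 8, 3.46 in male mutant 2, 0.860 in female mutant 1 and at most 0.105 in the remaining pair. Thus the 4 pieces were not alike, and male mutant 2 retained some rostral-group *Hox* RNA. The 8 pieces differed at their caudal end. *Hoxb9*, a gene of the spinal cord, was 0 in female control 2 and reached 35.0 CPM in male control 1, and *Hoxc6* ranged from 0.635 to 15.6 CPM. The label of caudal hindbrain therefore leaves out that several of these pieces also held transcripts of cord level.

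Across all genes, an edgeR quasi-likelihood fit with genotype as a covariate compared the 8 pieces with the 4, and a gene was called where the adjusted p lay below 0.05 and the difference exceeded 0.5 on the log2 scale in either direction. Fold changes are given as with minus without caudal *Hox*, on the log2 scale. Of 17194 genes tested, 2081 (12.1%) were called, 1651 (9.6%) higher and 430 (2.5%) lower with caudal *Hox*, and 24 of the higher genes have symbols that start with Hox. The median log2 fold change of all genes was 0.01. Among the called genes 571 exceeded a log2 fold change of 1 and 112 exceeded 2, whereas 39 were below −1 and 0 below −2. Because the split was read from these libraries, each p-value measures association with the *Hox* content of a piece, not the effect of a treatment. Female mutant 3 held muscle and cartilage transcripts, given further on, and without it 1906 of 16963 genes (11.2%) were called, 1505 (8.87%) higher and 401 (2.36%) lower, and 71 in place of 112 exceeded 2. Of the 2081 genes, 1741 were called in both fits. *Hbb-y*, the embryonic globin that is replaced as definitive blood takes over, was at 407 to 538 CPM in the SP libraries of the 4 embryos and at 51.2 to 472 CPM in those of the 8, and female control 2 had the highest value of the 8. With the *Hbb-y* level of the SP library as a covariate, chosen after seeing the data, 360 genes (2.09%) were called, 305 (1.77%) higher and 55 (0.32%) lower. The part of embryo age in the split was not tested.

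**Figure D1:**
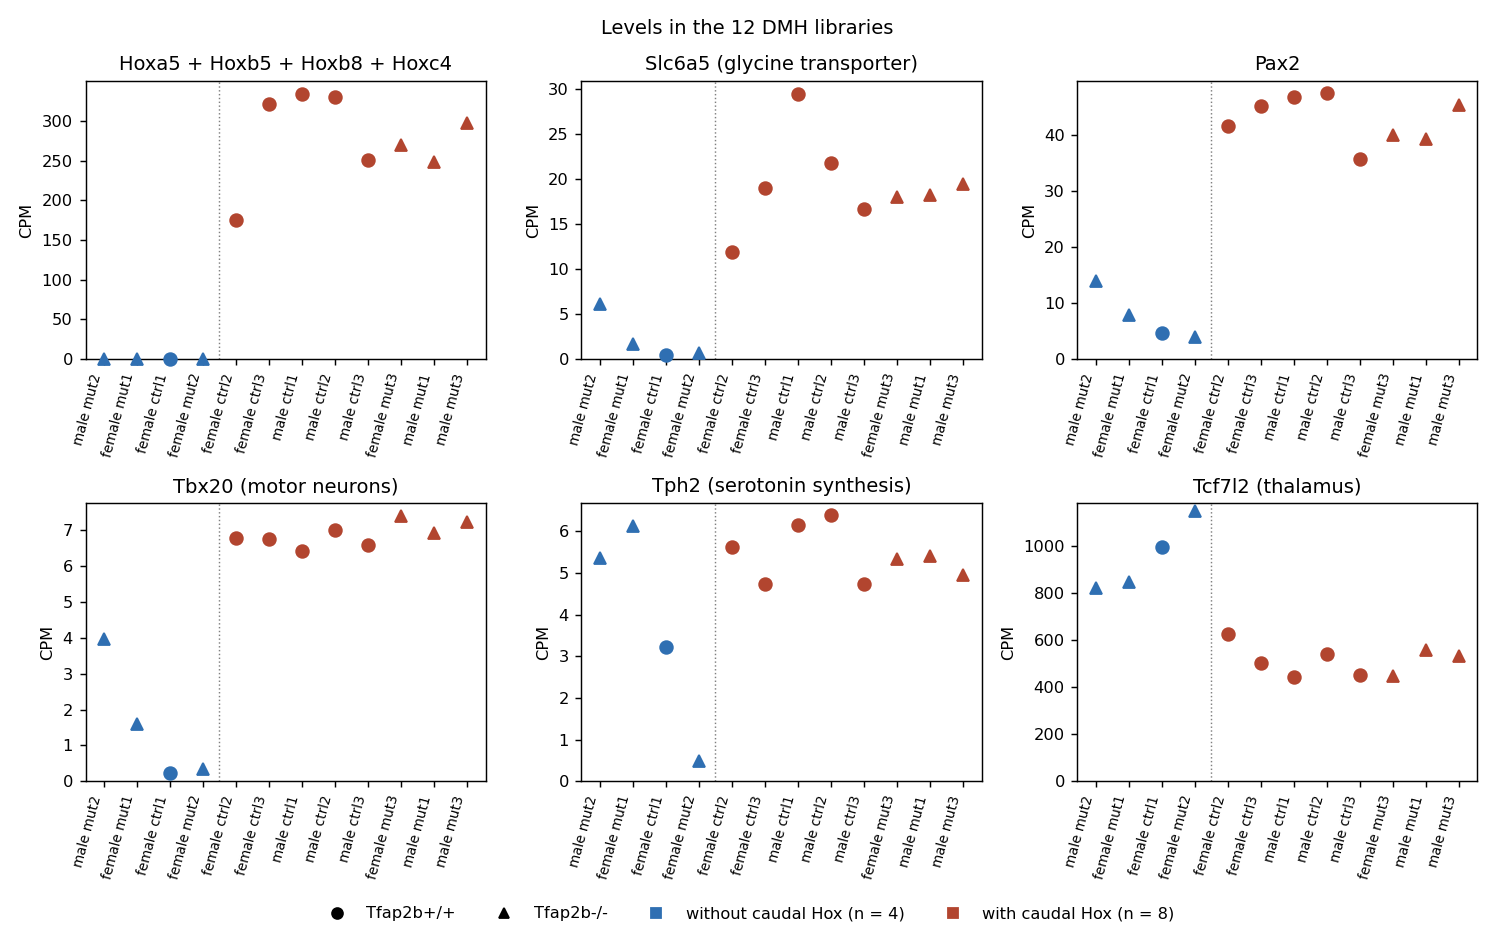
Levels in CPM (linear axes from 0) in each of the 12 DMH libraries, 4 without caudal *Hox* to the left of the dotted line (blue) and 8 with it to the right (red), circles for Tfap2b+/+ and triangles for Tfap2b-/-. *Slc6a5* and *Pax2* are higher in each of the 8 than in any of the 4, *Tbx20* runs among the 4 from 3.96 CPM in male mutant 2 to 0.227 in female control 1, *Tph2* is low in female mutant 2 (0.491 CPM) and female control 1 (3.21 CPM), and *Tcf7l2* is higher in the 4.

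Of 7 genes of glycine transmission, 4 were called higher in the caudal pieces. *Slc6a5* (ENSMUSG00000039728.15, chromosome 7 of GRCm38, 49910146 to 49963856, forward strand) encodes GlyT2, the plasma membrane transporter that fills glycinergic terminals. It was at 6.14 CPM in male mutant 2, 1.64 in female mutant 1, 0.667 in female mutant 2 and 0.453 in female control 1. In the 8 pieces it ran from 11.9 CPM in female control 2 through a median of 18.7 to 29.5 in male control 1. The groups did not overlap, which the rule for named genes required, and 20.7% of all genes tested did not overlap between the 4 and the 8. The difference came to 3.20 on the log2 scale (SE 0.63, edgeR adjusted p = 0.00423), and to 3.24 without female mutant 3. *Glra1*, the receptor subunit of the adult type, was at 0.378 to 0.873 CPM in the 4 and 1.87 to 4.05 in the 8 (2.26, SE 0.26, edgeR adjusted p = 0.000322). *Glra3* (1.14) and *Glrb* (0.51), further receptor subunits, were also called, *Glra3* with overlapping groups. *Glrb* sits at the fold threshold and dropped to 0.46 to 0.49 when any 1 of 4 libraries was left out. *Glra2*, the fetal subunit, *Slc6a9*, the glial transporter GlyT1, and *Gphn*, the receptor scaffold, had log2 fold changes of 0.28, 0.38 and 0.07 and were not called. Of the 7 glycinergic genes 4 were thus called higher and 0 lower, with a median of 0.51. With the *Hbb-y* covariate 1 of the 7 was called, with a median of 0.20 and *Slc6a5* at 2.68 (edgeR adjusted p = 0.0667), and in the mutants alone 2 were.

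Since the *Slc6a5* difference goes with *Hox* content, the letters TGATNNAT, a composite site of Hox and Pbx proteins, were searched on both strands in RefSeq promoters (GRCm38.p6, 250 bases before to 50 after a start). The windows below hold the 30 bases around the match in the 3 genes named higher that had one, with the matched letters in capitals.
Slc6a5, chr7:49910196-49910225, forward strand: aaaggggtaaTGATTTATCAaacgtgtatt
C1qtnf3, chr15:10952232-10952261, forward strand: tgcaggaatgTGATGAATgagagctgctct
Nxph2, chr2:23321042-23321071, forward strand: ttctttttgcATTCATCAagggagaaccct
In *Slc6a5* a match on either strand overlaps, TGATTTAT and ATTTATCA. The pair starts 93 bases before a RefSeq start of the gene and 60 bases after the gene start of GENCODE. Another RefSeq promoter of *Slc6a5* held no match. In *C1qtnf3* and *Nxph2* the match starts 90 and 194 bases before the start. Of the 12 genes named higher 6 had a promoter in the table and 3 of them a match, of the 12 named lower 8 had a promoter and 0 a match, and of all 27025 genes with a promoter 10.1% had one. A match is a string of letters and was not tested for binding.

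Of 7 GABAergic genes 1 was called higher, and of 7 glutamatergic genes 2, with 0 lower in either list and medians of 0.10 and 0.37. All 7 glutamatergic fold changes and 4 of the 7 GABAergic ones were positive. The summed CPM of the GABAergic genes were 552 to 615 in the 4 and 620 to 739 in the 8. Those of the glutamatergic genes were 725 to 813 and 851 to 998. These sums carry no test. *Gad1*, which makes GABA, was at 62.7 to 96.5 CPM in the 4 pieces and 89.0 to 124 in the 8, with a log2 fold change of 0.33 (95% interval 0.07 to 0.58), under the fold threshold. *Gad2*, the other GABA-producing enzyme, gave −0.09 (−0.24 to 0.06), and *Slc32a1*, the vesicular transporter that GABAergic and glycinergic neurons share, gave −0.05 (−0.16 to 0.05). The intervals of both latter genes thus exclude a log2 difference of 0.5. *Slc6a11*, the GABA transporter GAT3 of astrocytes, was the 1 of 7 GABAergic genes called, at 23.8 to 35.9 CPM against 57.6 to 114 (1.44, SE 0.20, edgeR adjusted p = 0.00119). *Slc17a6*, the vesicular glutamate transporter of brainstem and thalamic neurons, was at 147 to 161 CPM in the 4 and 150 to 182 in the 8 (0.08, −0.05 to 0.21). *Slc1a1* (0.63) and *Slc1a3* (0.52), uptake carriers for glutamate, were the 2 of 7 glutamatergic genes called. *Slc1a3* was at 0.45 without female mutant 2 and 0.47 without female control 1, under the threshold.

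Among cholinergic and motor neuron genes, 6 of 9 were called higher in the caudal pieces. *Slc18a3*, the vesicular acetylcholine transporter, was at 0.912 to 2.52 CPM in the 4 and 5.07 to 7.48 in the 8 (2.00, SE 0.23, edgeR adjusted p = 0.000322). *Chat*, which synthesises acetylcholine, was low throughout, at 0.0351 to 0.374 against 0.514 to 1.17 CPM (2.04). *Slc5a7* (1.14), the choline transporter, and *Ache* (0.76), which degrades acetylcholine, were called as well. *Tbx20*, a factor of branchial and visceral motor neurons, was at 3.96 CPM in male mutant 2, 1.60 in female mutant 1, 0.351 in female mutant 2 and 0.227 in female control 1, against 6.43 to 7.40 in the 8 (2.37, SE 0.56, edgeR adjusted p = 0.00808). *Isl1*, which is also made in forebrain and midbrain neurons, was not called (−0.45), nor was the intermediate filament *Prph* (1.82, edgeR adjusted p = 0.0899), at 40.7 CPM in male mutant 2 and 3.93 to 6.30 in the other 3. Of 9 genes tested of 10 listed, 6 were called higher and 0 lower, with a median of 1.76, and 3 higher with the *Hbb-y* covariate.

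Monoamine genes were called in both directions, and no test compared the systems. *Dbh*, which makes noradrenaline, was 1.13 CPM in female control 1 against 3.24 to 3.30 in all 5 Tfap2b+/+ pieces with caudal *Hox*, and among mutants it was 0, 0 and 0.218 against 0.410 to 0.495. Within each genotype the caudal pieces were thus higher, by 1.83 on the log2 scale (SE 0.37, edgeR adjusted p = 0.00275). *Slc6a2*, the noradrenaline transporter, was not called (0.83, edgeR adjusted p = 0.0626). *Phox2a* (1.97), a factor of noradrenergic and visceral neurons, was called, at 0.164 to 0.966 CPM in the 4 against a lowest value of 1.59 and a median of 1.88 in the 8. *Tph2*, the serotonin-producing enzyme of neurons, was at 5.36 CPM in male mutant 2, 6.14 in female mutant 1, 3.21 in female control 1 and 0.491 in female mutant 2, and at 4.73 to 6.39 in the 8. *Slc6a4*, the serotonin transporter, had the same order at its low end, with 0.386 CPM in female mutant 2 against 5.71 to 10.6 in the other 11 pieces. Neither was called (0.52, interval −0.48 to 1.52, and 0.68, −0.46 to 1.83). *Htr1a*, a serotonin receptor, was called (1.06). Of 11 serotonergic genes 2 were called higher and 2 lower, and of 5 noradrenergic genes 3 higher and 1 lower.

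Of 12 midbrain dopaminergic genes 8 were called lower and 0 higher, with a median of −0.63, and 5 lower with the *Hbb-y* covariate. *Th*, which makes dopamine and is also used by noradrenergic neurons, was at 10.7 to 13.9 CPM in the 4 pieces and 7.67 to 10.7 in the 8 (−0.59, SE 0.11, edgeR adjusted p = 0.00184). *Foxa2* (−0.87), *Foxa1* (−0.85), *En2* (−0.66), *Ddc* (−0.66) and *Lmx1a* (−0.65), factors and an enzyme of these neurons, were lower. The dopamine transporter *Slc6a3* was at 2.68 to 3.44 CPM in the 4 and 1.76 to 3.69 in the 8, and was not called. *Aldh1a1* had the highest log2 fold change of the list (0.67) and was not called. *Nr4a2* was not called either, at −0.41 to −0.28 over the alternative fits. The call of *Pitx3* ended when any 1 of 8 libraries was left out. *Foxa1* and *Foxa2* are also on the floor plate list, *En2* on the isthmus list and *Lmx1a* on the rhombic lip list.

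**Figure D2:**
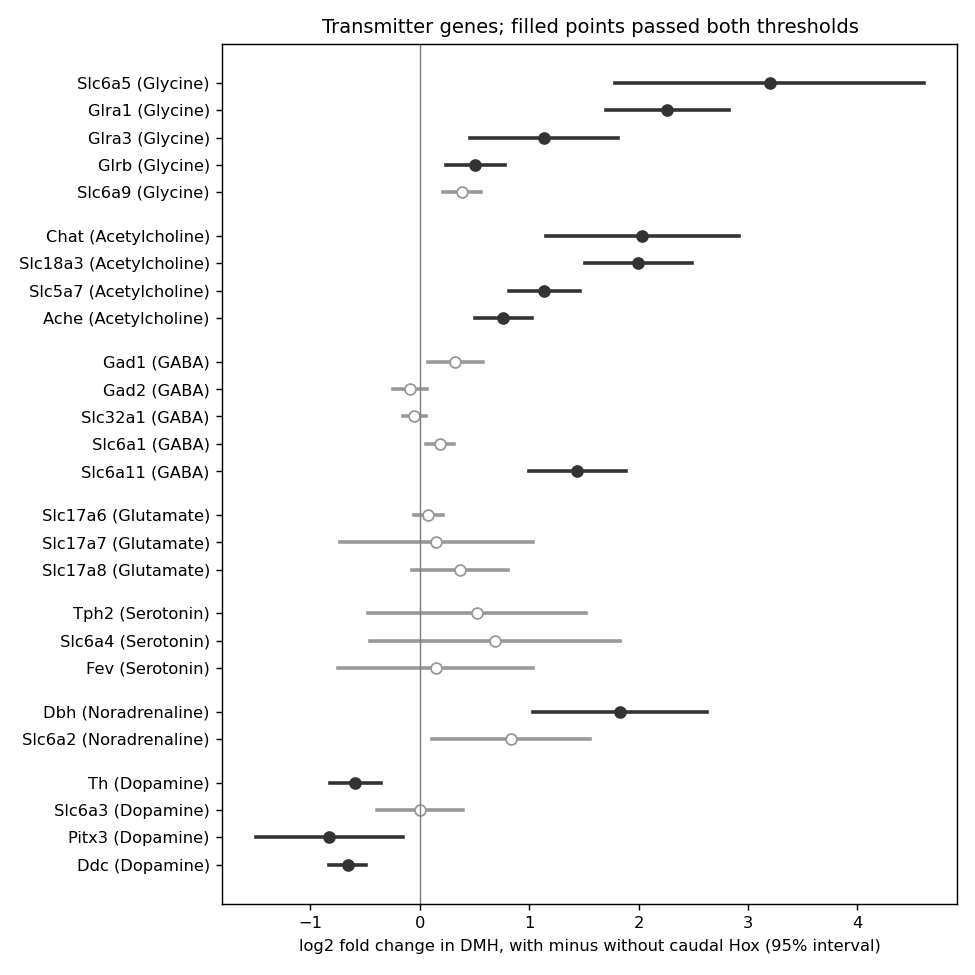
Log2 fold change in DMH (horizontal axis, with minus without caudal *Hox*) of genes of 7 transmitter systems, with 95% intervals from the edgeR fit over 12 libraries; filled points passed both thresholds. The glycine and acetylcholine genes plotted lie to the right with *Slc6a5* at 3.20, though *Slc6a9* was not called. The glycine genes *Glra2* and *Gphn*, not called, are not plotted. *Gad2*, *Slc32a1* and *Slc17a6* lie close to 0, and *Th*, *Pitx3* and *Ddc* lie to the left.

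Neuropeptide genes added to the caudal profile, with 10 of 20 tested higher, 1 lower and a median of 0.60 (34 listed), and 4 higher with the *Hbb-y* covariate. Without female control 1, 7 were higher and 2 lower. *Penk*, the precursor of enkephalins, was at 6.28 to 16.6 CPM in the 4 pieces and 23.9 to 35.4 in the 8 (1.63, SE 0.24, edgeR adjusted p = 0.00123). *Uts2b* (2.63), *Calca* (1.21), which encodes CGRP, *Npy* (0.84) and *Tac1* (0.73), which encodes substance P, were also higher. *Sst* was not called (0.26). *Pomc*, expressed in the hypothalamus, was lower (−1.03). The opioid receptor *Oprm1*, named after its values were seen, was at 0.597 to 0.778 CPM against 1.09 to 3.41 (1.76, edgeR adjusted p = 0.00118).

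Among 29 transcription factors of hindbrain and spinal interneurons, 14 were called higher and 5 lower, with a median of 0.69. *Lbx1*, a factor of dorsal interneurons, was at 6.27 CPM in male mutant 2, 2.70 in female mutant 1, 0.794 in female control 1 and 0.561 in female mutant 2, against 15.9 to 22.2 in the 8 (2.97, SE 0.54, edgeR adjusted p = 0.00304). *Pax2*, which marks inhibitory interneurons and earlier the isthmus, was at 13.9, 7.82, 4.65 and 4.04 CPM in the same order of pieces, against 35.7 to 47.5 (2.53, SE 0.31, edgeR adjusted p = 0.000855). In both genes male mutant 2 was the highest of the 4 and still below every one of the 8. *Gbx1* was at 1.12 to 2.46 CPM against 6.86 to 13.4 (2.81, SE 0.24, edgeR adjusted p = 5.1e-05) and *Lhx3*, a factor of motor neurons and V2 interneurons, at 0.0351 to 0.468 against 1.10 to 1.91 (3.02). *Mafa* (2.53), *Tlx3* (1.80) and *Pax8* (1.48), further interneuron factors, were higher too. The 5 lower members were *Dbx1* (−1.21), *Sox14* (−0.77), *En1* (−0.60), *Sim1* (−0.60) and *Gata3* (−0.60), genes that midbrain or diencephalon also express, and the call of *Sim1* ended without female mutant 3 (−0.49). *Dbx1* was at 58.6 to 67.5 CPM in the 4 pieces and 18.8 to 44.6 in the 8.

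The 12 non-*Hox* genes named for the largest positive fold change fell into 2 kinds. *Nkx6-3*, a homeobox gene of the caudal hindbrain, was at 0 in all 4 pieces and at 1.05 to 1.88 CPM in the 8, and the mean of the 8 was at least 14.3-fold higher than the mean floor of 3 counts per library in the 4. *Nxph2*, a neurexophilin, was at 0.0702 to 0.374 CPM against 1.21 to 2.29 (2.88, SE 0.31, edgeR adjusted p = 0.000189). These 2 belonged with *Slc6a5*, *Lhx3*, *Lbx1* and *Gbx1* to the first kind, in which female mutant 3 did not stand apart, and without that library the log2 fold changes of the 5 other than *Nkx6-3* were 2.79 to 3.24. Of the other 6, 5 are described here, *Tnnt3* and *Actn2* (muscle), *Col11a2* (cartilage), *C1qtnf3* and *Smoc2*, and these were highest in female mutant 3. *Tnnt3* was at 35.0 CPM there, and the median of the 8 pieces was 0.547 CPM. Without that library its log2 fold change went from 5.40 to 1.38, that of *Actn2* from 4.98 to 1.15, of *C1qtnf3* from 4.96 to 1.73, of *Col11a2* from 3.89 to 1.02 and of *Smoc2* from 2.87 to 1.16. A call without that library was a condition for being named. With female mutant 3 in the fit, the calls of *Actn2* and *Col11a2* ended when any 1 of 8 other libraries was left out and those of *Tnnt3*, *C1qtnf3* and *Smoc2* when male mutant 2, female mutant 1 or female mutant 2 was. Beyond the named genes, *Egr2*, expressed in rhombomeres 3 and 5 and in Schwann cells, was at 0.189 to 0.405 against 0.959 to 1.81 CPM (2.38), and *Lamp5* at 2.68 to 21.3 against 39.2 to 52.3 (2.56). These genes were picked after their values were seen.

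**Figure D3:**
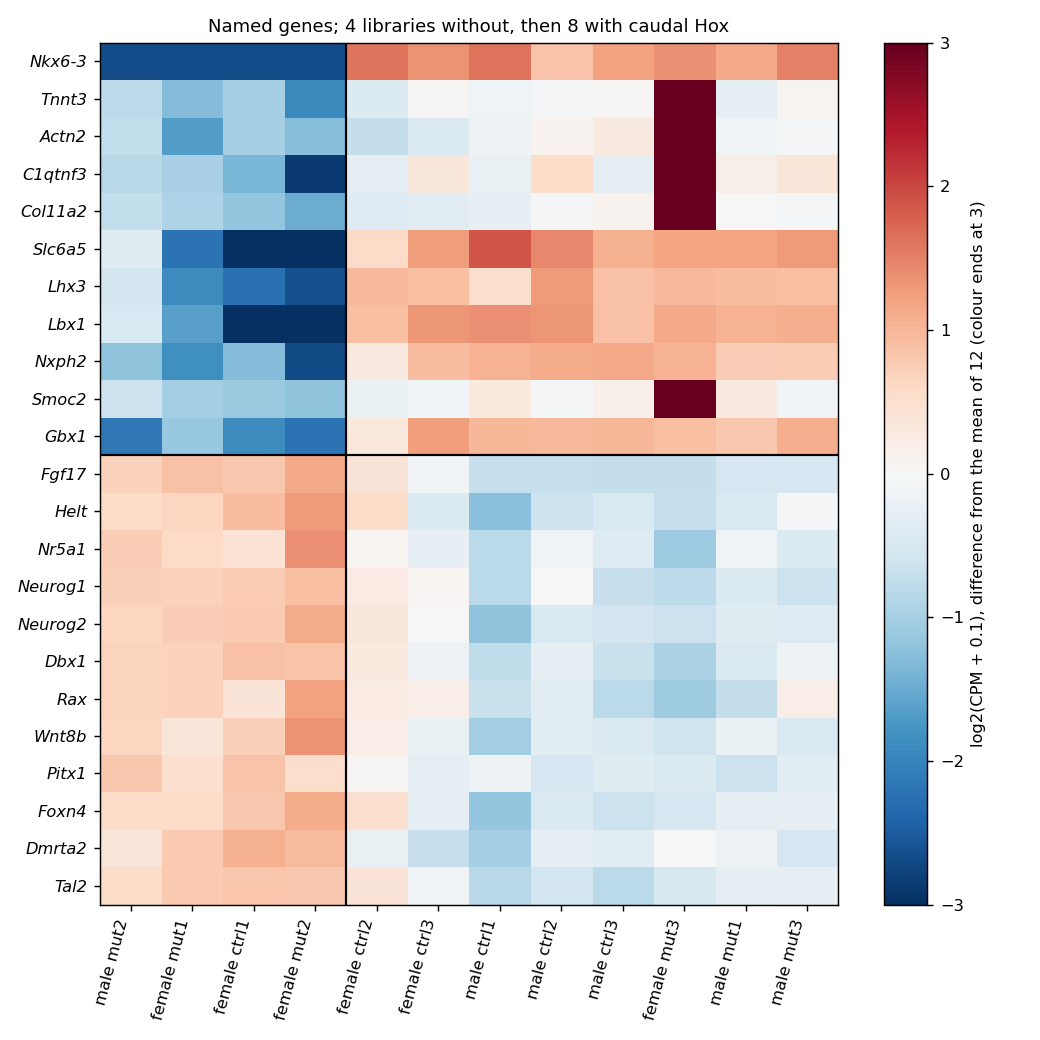
The genes named higher (above the line) and the 12 named lower (below it) in 4 libraries without and 8 with caudal *Hox*, coloured by log2(CPM + 0.1) as a difference from the mean of the 12 libraries, with the colour ending at 3. *Tnnt3*, *Actn2*, *C1qtnf3*, *Col11a2* and *Smoc2* stand out in female mutant 3, while *Nkx6-3* and *Gbx1* separate the groups evenly.

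Some oligodendrocyte, retinoic acid and choroid plexus genes were called higher in the caudal pieces. Of 10 genes of the oligodendrocyte lineage 5 were called higher and 1 lower, with a median of 0.63, and 1 in each direction with the *Hbb-y* covariate. *Gpr17*, a receptor of committed precursors, was at 1.89 to 4.49 CPM in the 4 against a lowest value of 8.83 and a median of 11.9 in the 8 (1.85, SE 0.21, edgeR adjusted p = 0.000395), and *Sox10* (1.50), *Pdgfra* (0.91) and *Olig1* (0.88) were higher, while *Olig2* was not called (0.01). *Nkx2-2*, which in this list also marks the thalamic boundary, was lower (−0.83). *Sox10* is also made by Schwann cells, and 7.04 CPM of it in male mutant 2 lay within the range of the 8. Of 16 retinoic acid genes 4 were higher and 1 lower, with a median of 0.34, and 6 and 0 without male mutant 1. *Crabp1*, the retinoic acid binding protein, was at 7.29 to 12.5 CPM against 24.7 to 31.1 (1.52, SE 0.12, edgeR adjusted p = 1.46e-05) and *Rarb*, a receptor that retinoic acid induces, at 6.84 to 7.47 against 9.83 to 15.8 (0.81). *Aldh1a2*, which makes retinoic acid, was higher with overlapping groups (0.96), and the call of *Aldh1a3* (1.92) ended without female mutant 3 (1.07, edgeR adjusted p = 0.15). Of 13 choroid plexus genes 4 were called higher, but *Ttr*, the main transcript of that tissue, was not (0.80, edgeR adjusted p = 0.208), and its 70.1 to 387 CPM in the 4 pieces overlapped the 158 to 601 of the 8.

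Markers of tissue outside the brain moved with part of the split. Summed over 9 genes, sensory ganglion and Schwann cell transcripts were at 19.9 to 22.6 CPM in female mutant 2, female control 1 and female mutant 1, 81.9 in male mutant 2 and 48.2 to 116 in the 8 pieces, and 4 of the 9 were called higher, with a median of 1.88. Without male mutant 2 all 9 were, and without female control 1 it was 2. The defining nociceptor gene *Scn10a* was at 2.34 CPM in male mutant 2, at most 0.0756 in the other 3, and at 0.272 to 6.89 in the 8. The part of these ganglion cells in the peptide, *Prph*, *Prrxl1* and neurofilament values was not tested. The skeletal muscle list summed to 643 CPM in female mutant 3 and 5.75 to 8.27 in the other 11, and the cartilage list to 1914 CPM there against 65.5 to 90.6. Without female mutant 3 the median of the 5 muscle genes tested was 0.00. The meninges list held 3245 CPM in female mutant 3, 938 to 1238 in the other 7 and 747 to 918 in the 4, with 2 of 10 called higher, 1 without that library and 4 without male mutant 1. Endothelium and microglia, with 7 genes each, had 0 called in either direction and medians of 0.01 and −0.06. Of 7 blood genes only *Hbb-y* was called (−1.69). Its call ended when any 1 of 5 libraries was left out, among them female mutant 3 (−1.72, edgeR adjusted p = 0.0512). Without male mutant 2, 3 blood genes were called lower.

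**Figure D4:**
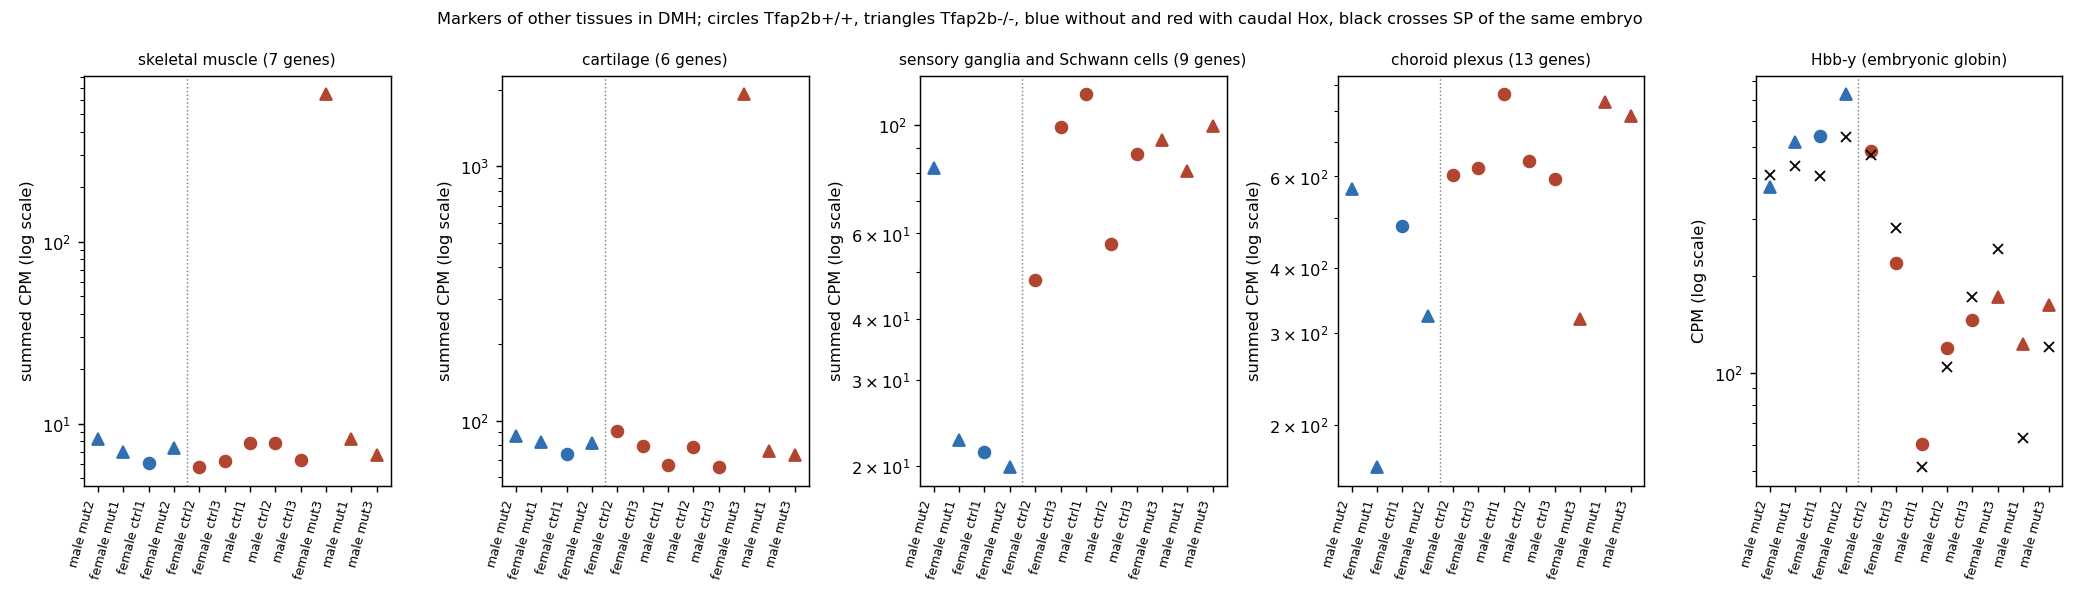
Summed CPM of marker lists and the CPM of *Hbb-y* (log axes) in each DMH library, blue without and red with caudal *Hox*, circles Tfap2b+/+ and triangles Tfap2b-/-, with black crosses for *Hbb-y* in SP of the same embryo. Muscle and cartilage stand out in female mutant 3 (643 and 1914 CPM), ganglion markers are low in 3 of the 4 pieces without caudal *Hox*, and *Hbb-y* is at 377 CPM or more in those 4.

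Lists of rostral territories held genes called lower in the caudal pieces and none called higher, except at the isthmus. Of 10 midbrain factors 8 were lower and 0 higher (median −0.75), of 10 thalamic and pretectal genes 7 and 0 (−0.72), of 12 hypothalamic genes 7 and 0 (−0.75) and of 10 telencephalic and *Dlx* genes 3 and 0 (−0.65). With the *Hbb-y* covariate the numbers called lower were 4 midbrain, 6 thalamic and pretectal, 0 hypothalamic and 1 telencephalic. The telencephalic count ran from 1 (without female control 1 or 3, male control 2, male mutant 1 or 3, or female mutant 2) to 7 (without male control 3) with 1 library left out. *Tcf7l2*, the effector of Wnt signalling that marks thalamic neurons, was at 822 to 1150 CPM in the 4 pieces and 443 to 628 in the 8 (−0.91, SE 0.12, edgeR adjusted p = 0.000749). *Otx2*, which sets the caudal edge of the midbrain, was at 124 to 153 CPM against 63.6 to 96.6 (−0.75, SE 0.10, edgeR adjusted p = 0.000902). Neither gene overlapped between the groups. CPM are shares of a library, so a piece that includes more hindbrain holds a smaller share of every other region, and the amount of midbrain tissue was not measured. Of 11 isthmus genes 6 were lower, with *Fgf17* at 3.99 to 5.54 against 1.44 to 3.24 CPM (−1.41, SE 0.22, edgeR adjusted p = 0.00104), and 2 higher, *Pax2* and *Fgf18*. The call of *Fgf18* (0.61) ended without female mutant 3 (0.44), which left 1 higher and 5 lower. Of 15 cerebellar and rhombic lip genes 2 were higher, among them *Atoh1* (0.93), and 4 lower, and 2 lower without female mutant 2 or without female mutant 3. Without female mutant 1, female mutant 2 or male mutant 2, 1 was higher. With the *Hbb-y* covariate 1 was higher and 1 lower. Of 7 floor plate genes 1 was higher, 2 without male mutant 2, and 2 were lower.

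Among the 12 genes named lower, proneural and progenitor factors stood beside regional ones. With the *Hbb-y* covariate 4 of these 12 were still called, *Fgf17*, *Neurog1*, *Pitx1* and *Dmrta2*, and *Neurog2* was at −0.72 (edgeR adjusted p = 0.11). Of all 24 named genes 15 lost their call under it, some with folds near those without it, such as *Dbx1* at −0.95 (edgeR adjusted p = 0.0738). *Neurog2*, which starts neuronal differentiation, was at 61.5 to 85.9 CPM in the 4 pieces and 17.1 to 49.9 in the 8 (−1.24, SE 0.25, edgeR adjusted p = 0.00401), and *Neurog1*, of the same family, at 10.3 to 12.1 against 3.59 to 7.59 (−1.25). *Foxn4* (−1.17), *Dmrta2* (−1.16) and *Wnt8b* (−1.20) are likewise genes of dividing neuroepithelium. *Helt* (−1.29) and *Tal2* (−1.10) direct GABAergic fate in the midbrain, and *Rax* (−1.20) and *Nr5a1* (−1.26) are genes of the hypothalamus. *Pitx1* (−1.19) was at 1.72 to 2.27 against 0.731 to 1.24 CPM. Of 10 proliferation genes 7 were lower and 0 higher, with a median of −0.57, and *Ccnb1*, the mitotic cyclin, was at 44.9 to 52.8 CPM against 19.7 to 36.4 (−0.73). Of 13 radial glia genes 4 were lower, among them *Sox2* (−0.57) and *Hes5* (−0.73), and 1 was higher. Without female mutant 2 these were 2 and 0, and with the *Hbb-y* covariate 1, *Hes5*, and 0. Of 13 neuronal maturation genes 5 were higher and 0 lower, with a median of 0.19, the most changed being *Nefh* (1.35), the heavy neurofilament, and without female control 1 they were 2 higher and 1 lower. The proliferation list had a median of −0.28 in the SP libraries of the same embryos, with 9 of 10 genes negative. The maturation list had a median of 0.27 there. With the *Hbb-y* covariate 0 of the 10 proliferation genes and 0 of the 13 maturation genes were called. Under the same covariate the interneuron factors had 11 higher and 2 lower, the isthmus list 1 and 3, the retinoic acid list 2 and 0, the noradrenergic list 2 and 0, and the glutamatergic, choroid plexus and ganglion lists 0 called.

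**Figure D5:**
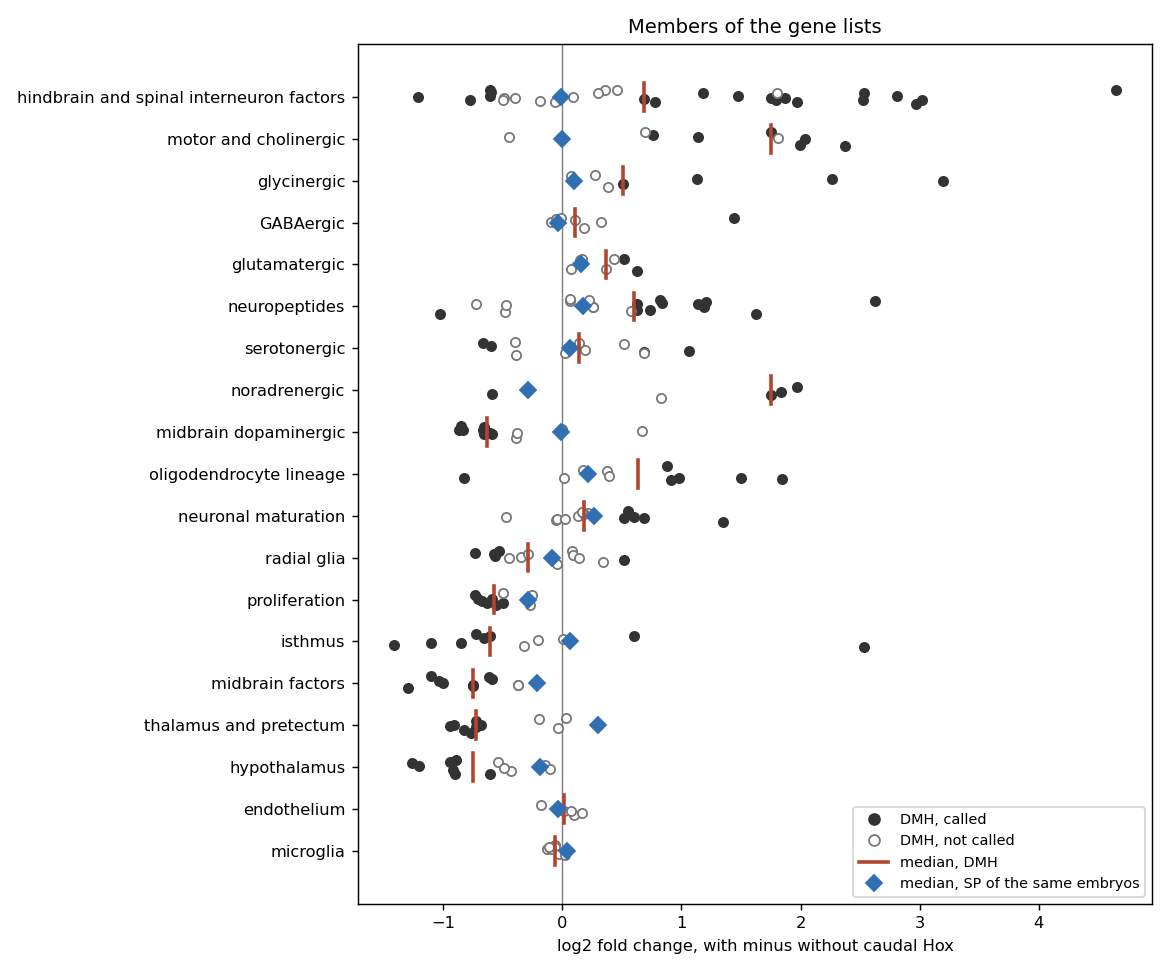
Each point is a gene of the list named at left, placed by its log2 fold change in DMH (with minus without caudal *Hox*), filled where called; red bars are list medians in DMH and blue diamonds list medians in SP of the same embryos. The thalamus list has a DMH median of −0.72 and an SP median of 0.30, whereas the proliferation list has medians of −0.57 and −0.28.

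The SP libraries of the same 12 embryos hold no hindbrain and were split by the *Hox* content of the matching DMH piece. The same contrast in SP called 0 of 16977 genes (0.0%) in edgeR and 0 in DESeq2, although 2404 genes (14.2%) had an unadjusted p under 0.05, against 8582 in DMH. The lowest edgeR adjusted p was 0.339. The SP median of the genes called higher in DMH was 0.29 and that of the genes called lower was −0.24, over 1849 called genes tested in SP. These are the same embryos, and the medians carry no test. The test of the difference itself, DMH minus SP with the embryo as a block, called 323 of 17828 genes (1.81%), 254 (1.42%) higher and 69 (0.387%) lower, of which 250 were also called in DMH. Among them were *Gbx1* (3.06, edgeR adjusted p = 0.0112), *Pax2* (3.08), *Mafa* (2.43) and *Skor1* (1.89), 4 of the 5 interneuron factors so called of 29. *Penk* (1.62), *Slc18a3* (2.20), *Gpr17* (1.34), *Crabp1* (1.72), *Rarb* (0.67) and *Slc6a11* (0.95) were in this set, as were *Lamp5* (3.71) and *Egr2* (2.97). On the lower side were *Otx1* (−0.88), *Tfap2d* (−0.86) and *Helt* (−1.01) of the midbrain, *Lhx2* (−0.57), *Barhl2* (−0.64) and *Six3* (−1.11) of the thalamic list, and *Neurog1* (−0.88) and *Neurog2* (−1.07). None of the proliferation or maturation genes was called in this test. *Slc6a5* (3.04, edgeR adjusted p = 0.157) and *Lbx1* (edgeR adjusted p = 0.253), at most 0.0521 and 0.0763 CPM in SP, did not pass it.

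The pieces formed a gradient within each group. Of the 1627 non-*Hox* genes called higher, male mutant 2 had the highest level among the 4 pieces in 67.7% and female mutant 2 the lowest in 55.3%, against 34.5% and 34.9% of all genes tested. Among the 8, female control 2 had the lowest level in 66.3% (21.3% of all genes) and male control 1 the highest in 43.1% (15.4%). The 430 genes called lower mirrored this, since female mutant 2 was the highest of the 4 in 58.8% (27.7% of all genes) and female control 2 the highest of the 8 in 63.3% (25.3%). Male mutant 2 was also the piece of the 4 with the most *Hoxb3*, and female control 2 the one of the 8 with the least of the 4-gene *Hox* sum. In SP, *Hbb-y* was highest of the 8 in female control 2 (472 CPM) and lowest in male control 1 (51.2 CPM), and among the 4 it was highest in female mutant 2 (538 CPM). The order of the *Hox* levels and that of *Hbb-y* did not match throughout. Female control 3 had more *Hbb-y* in SP than male mutant 1, yet also the higher *Hox* sum. Among the 4, *Hbb-y* in SP was lowest in female control 1, not in male mutant 2. The part of either order in the gradient was not tested. Within the 6 mutants alone, 3 pieces against 3, 1712 of 16819 genes (10.2%) were called, 1269 (7.55%) higher and 443 (2.63%) lower. *Slc6a5* (2.70, edgeR adjusted p = 0.0733) and *Lbx1* (2.52, edgeR adjusted p = 0.0819) were not called there.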

How the data were processed

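Stranded poly(A) RNA-seq libraries were made from DMH and SP of 12 embryos (24 libraries). The deposited files hold whole-number read counts per gene, which the authors made with STAR 2.6.1d on GRCm38.p6 after trimming with cutadapt 2.4. Column 4 held the stranded counts, and 4 lines that name no gene were left out of library sizes (in DMH, unmapped 6.01 to 7.05% and multimapping 5.10 to 5.80%). Symbols were found for 54409 of 54446 gene IDs. Counts were analysed in edgeR 4.0.16 (R 4.3.3) with TMM scaling, its filter on low counts and the robust quasi-likelihood test, with genotype as a covariate, and p-values were adjusted by Benjamini-Hochberg over all genes tested. DESeq2 1.42.0 was an alternative. CPM in the text are TMM-scaled over the 24 libraries, except the 4-gene *Hox* sum, which is the unscaled share of a library that set the split.

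The members and the 32 gene lists were chosen with earlier results of these data known. The named genes were the 12 non-*Hox* genes of each direction with the largest fold change among those called with and without female mutant 3, at 1 CPM or more in the higher group, without overlap of the libraries and not predicted genes, besides the list genes and *Tfap2b*. Some of these genes are not reported here. Libraries were treated as replicates because the labels number them as replicates. On simulated counts with these 4 and 8 libraries, edgeR recovered 90 of 100 genes changed by 1 and 95 of 100 changed by 2 on the log2 scale. The simulated counts held no genotype effect, no gradient within the groups and no library like female mutant 3, so recovery in the real data may be lower. SP and DMH libraries with the same sex, genotype and number were taken as 1 embryo. In 12 of 12 the DMH library correlated better with that SP library than with the others of the same sex and genotype. SP libraries of other groups were not compared. These correlations, of deviations from group means, ran from 0.0512 to 0.382.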

Additional observations from a re-analysis of the deposited data

Results flagged for a closer look

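In female mutant 3 the levels of 5 named genes stood apart from the other 7 pieces with caudal *Hox* by Dixon's criterion, with *Tnnt3* at 35.0, *Actn2* at 60.9, *C1qtnf3* at 53.9, *Col11a2* at 208 and *Smoc2* at 21.9 CPM. In female control 2 *Foxn4* stood apart at 2.66 CPM. Chance sets apart about 1 in 20 of such groups, and 48 were examined.

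By the edgeR test of the difference itself, the log2 fold change in DMH differed from that in SP of the same embryos for 323 genes. Among the named genes the differences were 5.18 for *Tnnt3*, 3.06 for *Gbx1*, 2.39 for *Nxph2*, −1.01 for *Helt*, −1.07 for *Neurog2* and −0.88 for *Neurog1*. *Tnnt3* had an edgeR adjusted p of 0.0476, and its log2 fold change in DMH was 1.38 without female mutant 3.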

How the results depend on the processing

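The count of 2081 genes called in DMH became 360 with the *Hbb-y* level of SP as a covariate, an alternative chosen after seeing the data, and 7023 with no threshold on the fold change. The cause of the first change was not tested, and the second drops a criterion. With 1 library left out the count ran from 1539 (without female mutant 2) to 2349 (without male mutant 2). It stayed within 1.5 times of 2081 under the other alternatives, among them DESeq2 (2048), no filter on low counts (2047), sex as a covariate (1644, of which 277 were lower in place of 430), no genotype term (1996) and leaving out female mutant 3 and male mutant 2 together (2230, chosen after seeing the data). In SP the count was 0 to 0 with 1 library left out and 2 in the mutants alone (*Gm7292* and *Gm4737*). The difference between DMH and SP gave 134 genes with no embryo block, 1296 at an FDR under 0.2 and 230 without female mutant 3. *Hapln1*, a cartilage marker, had a log2 fold change of 3.27 that turned to −0.57 without female mutant 3 and −0.60 also without male mutant 2.

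With the replicate number as a block 1784 genes were called in DMH. Libraries that share a number had a median correlation of deviations of −0.02 and other pairs 0.0039, so the numbers were not taken to pair the embryos. The calls rest on 4 pieces without caudal *Hox*, 1 of them a control, and low levels near 3 counts (0.0449 to 0.121 CPM) limit the precision of folds such as that of *Chat*.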
